A study of Mus musculus with 6 samples.

Results

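The genes described here encode the enzymes, transporters and regulators that move glucose through the hepatocyte. They cover glycolysis, gluconeogenesis, glycogen turnover, fructose entry and the pentose phosphate pathway. The 38 members were chosen by name from these pathways and matched to Ensembl identifiers, out of 55487 genes in the count tables. The choice was made with earlier results of these data known. All 38 had enough counts to be tested, among 12741 tested genes in all. *Aldoa* is carried by 2 identifiers, and ENSMUSG00000030695, the one at the RefSeq position, was used.

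The samples were hepatocytes, which carry out most of the metabolic work of the liver, from adult mice 6 to 8 weeks old. One group was homozygous for AEG-1-C75S and the other was AEG-1 wild type (WT), both bred by crossing heterozygotes, and every library carries the treatment label Control. AEG-1, encoded by *Mtdh*, is an endoplasmic reticulum membrane protein, and C75S exchanges the cysteine that can carry a palmitoyl group for serine. RNA was taken 48 h after the cells were isolated, and 3 libraries were sequenced in each of 2 groups. The mouse strain, how the cells were kept during those hours, and whether the libraries of a group came from separate mice are not given in the sources used here. P-values therefore measure the spread between these libraries, which may be technical. The comparison asks which transcripts differ when AEG-1 lacks this residue.

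In the liver, glucose enters through a high-capacity transporter, is phosphorylated, and can be burned, stored as glycogen or passed to the pentose phosphate pathway, which makes NADPH for reductive synthesis and antioxidant defence. Gluconeogenesis runs the other way and ends with glucose-6-phosphatase, which frees glucose for export. Hepatocytes use particular isozymes at several of these steps (GLUT2, liver-type pyruvate kinase and liver-type phosphofructokinase). Most other tissues, and hepatocytes that lose their specialised state, use GLUT1, the Hk1 and Hk2 hexokinases and the M-type pyruvate kinase.

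A gene-level count of *Mtdh* does not read the changed codon, so the genotype labels were not checked here. Depth was 16944723 to 21044292 counts on genes per library, and C75S replicate 1 was the shallowest. The 38 members together took 0.835% to 0.927% of gene counts. Libraries of 1 genotype differed from each other beyond sampling noise (chi-square over degrees of freedom 4.05 to 8.99 across genes). That is more than sequencing 1 library again would give. It cannot tell separate mice from separate preparations of the same cells. Hepatocyte markers (10 of 10 tested) summed to 78505 to 86751 CPM (the count scaled to a common library size) in WT and 70377 to 83064 CPM in C75S. Most of that sum was *Alb* (67143 CPM in WT and 60607 CPM in C75S on average), 5 of the 10 lay above 0 and 5 below in log2 fold change, and *Cyp2e1* was called higher (log2 fold change 0.31, edgeR adjusted p = 0.00908). The Kupffer cell genes *Clec4f*, *Vsig4*, *Adgre1* and *Cd5l* and the lymphoid genes *Ptprc*, *Cd3e*, *Cd79a* and *Nkg7* stayed under 10 counts in most libraries.

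Short stretches upstream of a RefSeq start are shown here for 3 of the 6 members that changed. They were chosen because *Taldo1* and *G6pdx* belong to one pathway and *G6pc* is the last enzyme of glucose output. The stretches are from RefSeq on GRCm38.p6, written 5′ to 3′ on the gene's strand. Capitals mark matches on either strand to TGACNNNGC (the core of the antioxidant response element), CCAAT or TGTTTTG (the core of the insulin response sequence). CACGTG (an E-box) was also searched. *Taldo1* (chr7:141392130-141392159, plus strand) is shown for the 30 bases before the annotated start. *G6pdx* (chrX:74428918-74428947, minus strand) is shown for 30 bases around its match. These bases lie upstream of the RefSeq start but inside the gene as GENCODE draws it, in an exon. *G6pc* (chr11:101367466-101367560, plus strand) is shown for the 95 bases of its window that lie outside the GENCODE exons.
Taldo1: gcttcatttagctttgctttgATTGGccag
G6pdx: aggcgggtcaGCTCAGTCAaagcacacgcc
G6pc: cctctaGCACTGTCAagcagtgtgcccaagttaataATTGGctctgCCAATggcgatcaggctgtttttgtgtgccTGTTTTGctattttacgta

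The *Taldo1* stretch holds a CCAAT match on the opposite strand. Over the 250 bases upstream of 32851 RefSeq starts, a match to CCAAT was found in 33.8%, to TGACNNNGC in 10.2%, to CACGTG in 6.02% and to TGTTTTG in 5.56%. The RefSeq table held 37 of the 38 members. Of these, 19 had a CCAAT match at 1 or more starts, 6 a TGACNNNGC match (*Aldoa*, *Fbp1*, *G6pc*, *G6pdx*, *Hk1* and *Tkfc*), 6 a CACGTG match and 3 a TGTTTTG match (*G6pc*, *Gckr* and *Pck2*). The percentages are per start, whereas a member was counted once over all its starts (4 for *Pfkm*). A member with several starts had more chances of a match, so these counts cannot be set against the percentages. CCAAT was added to the search after these sequences had been read. A match describes letters in a window and is not a bound site.

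Of the 38 members, 6 differed between the genotypes at an adjusted p-value under 0.05 (edgeR, quasi-likelihood), 5 higher and 1 lower in C75S. That is 15.8% of the members, beside 3.11% of all tested genes (1.74% higher and 1.37% lower). Because the members were chosen with earlier results known, this share and those below describe the list and do not test it. The higher members were 3 of the 4 pentose phosphate enzymes (*G6pdx*, *Pgd* and *Taldo1*) and both non-liver hexokinases (*Hk1* and *Hk2*). The lower one was *G6pc*. The median log2 fold change was 0.01 over the members and -0.003 over all tested genes, and 21 members lay above 0 and 17 below. The genotypes did not overlap in 8 members (21.1%), against 18.0% of all tested genes. C75S was above in 5 of these (9.02% of all tested genes) and below in 3 (8.96%). At an unadjusted edgeR p-value under 0.05 stood 14 members (36.8%), against 13.4% of all tested genes.

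**Figure D1:**
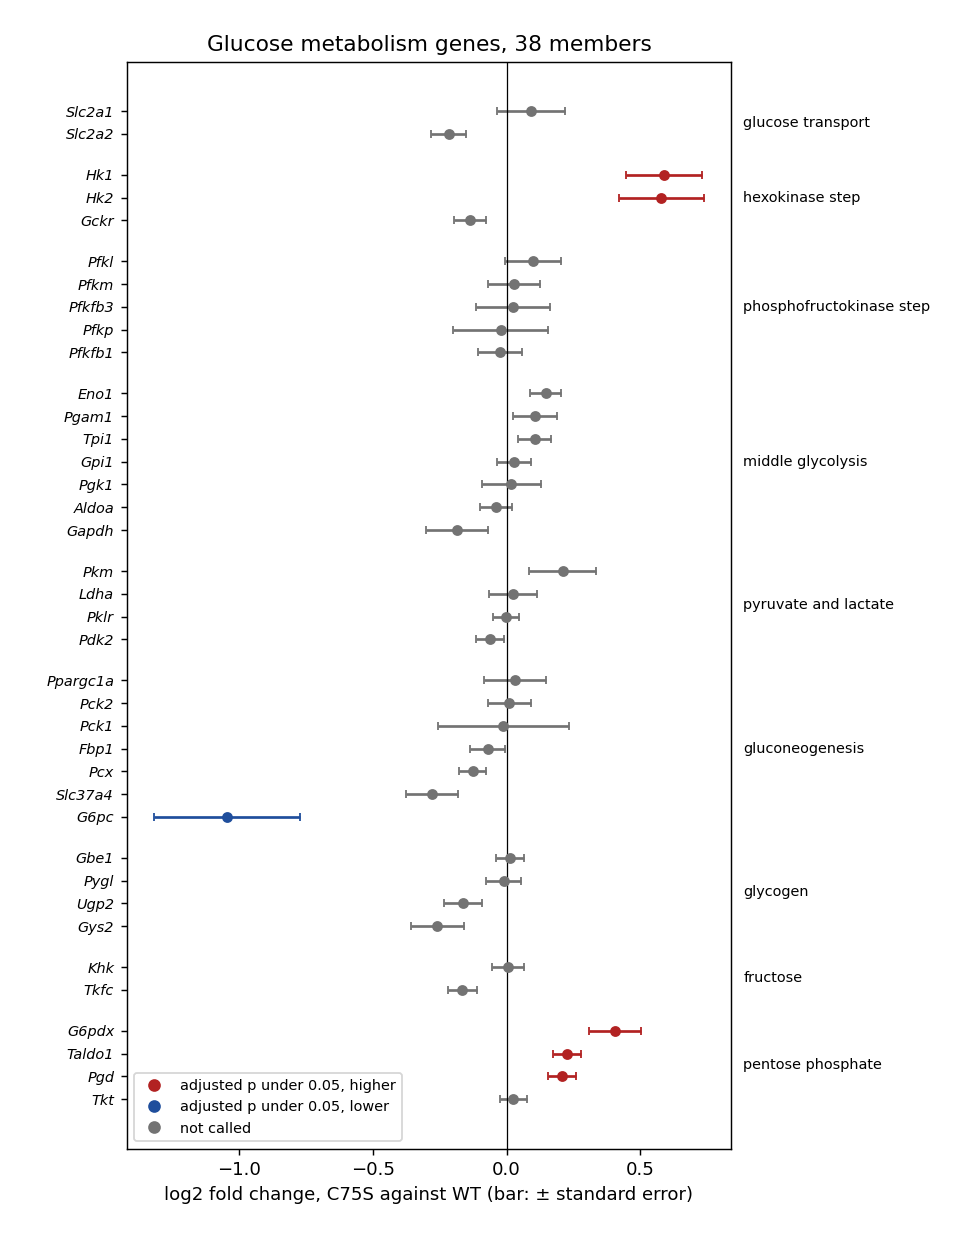
Log2 fold change of C75S against WT for the 38 members, with the standard error as a bar, grouped by pathway step. Red points are the 5 members that passed the adjusted threshold as higher and the blue point is *G6pc*, at -1.05; gray points did not pass.

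The pentose phosphate pathway held the most called members. *G6pdx*, glucose-6-phosphate dehydrogenase, catalyses the first and committed step and makes NADPH. It was measured at 14.7, 15.7 and 15.2 CPM in WT replicates 1 to 3 and at 21.9, 18.1 and 20.6 CPM in C75S replicates 1 to 3. All C75S libraries lay above all WT libraries, and the means were 20.2 ± 1.93 and 15.2 ± 0.51 CPM (SD, n = 3 each). The log2 fold change was 0.41 (SE 0.10; adjusted p = 0.0180, edgeR). *G6pdx* (ENSMUSG00000031400, chrX:74409483-74429194, minus strand, protein coding) overlaps exons of *Ikbkg* on the other strand. Counted without regard to strand, its log2 fold change was 0.20 and its call was lost (edgeR adjusted p = 0.284).

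*Pgd*, 6-phosphogluconate dehydrogenase, makes the second NADPH of the pathway and was the most abundant of the 3. It stood at 328, 317 and 323 CPM in WT and at 392, 385 and 342 CPM in C75S. C75S replicate 3 was the closest of its group to WT, and the groups did not overlap. The log2 fold change was 0.21 (SE 0.05; adjusted p = 0.0269, edgeR), from 323 ± 5.48 to 373 ± 26.7 CPM (SD, n = 3 each). *Pgd* is protein coding at chr4:149149991-149166771 (ENSMUSG00000028961, minus strand).

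*Taldo1*, transaldolase, belongs to the non-oxidative branch that returns pentose carbon to glycolysis. Its levels were 94.3, 102 and 97.9 CPM in WT and 119, 111 and 113 CPM in C75S, again without overlap. The log2 fold change was 0.22 (SE 0.05; adjusted p = 0.0154, edgeR), the smallest adjusted p among the members. It lies at chr7:141392199-141402968 (ENSMUSG00000025503, plus strand). *Tkt*, transketolase, works in the same branch as *Taldo1* and did not pass. It was measured at 557, 585 and 553 CPM in WT and at 581, 583 and 561 CPM in C75S, overlapping, with a log2 fold change of 0.03 (SE 0.05; adjusted p = 0.891, edgeR).

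Near copies were few for these enzymes. *G6pdx* has the copy *G6pd2* (93.2% identity over 2332 bases) and *Taldo1* the copy *Gm17823* (94.7% over 923 bases). Those copies held 11 and 27 counts over all 6 libraries, against 2095 and 12627 for *G6pdx* and *Taldo1*. *Pgd* had no copy at 90% identity over 200 bases.

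Each of these calls was lost in some of the fits that left out 1 library, where calls over all genes also fell. *Taldo1* lost its call without C75S replicate 1 (edgeR adjusted p = 0.0901) or WT replicate 1 (0.0541). *Pgd* lost it without WT replicate 2 (0.161), WT replicate 3 (0.0794), C75S replicate 1 (0.135) or C75S replicate 2 (0.120). *G6pdx* kept its call only without C75S replicate 2 (0.00919). Its values in the other fits were 0.0530 without WT replicate 1, 0.0504 without WT replicate 2, 0.0629 without WT replicate 3, 0.119 without C75S replicate 1 and 0.0642 without C75S replicate 3. The 3 genes stayed higher in C75S in all of these fits. Their log2 fold changes ranged from 0.195 to 0.253 for *Taldo1*, 0.172 to 0.267 for *Pgd* and 0.346 to 0.483 for *G6pdx*.

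**Figure D2:**
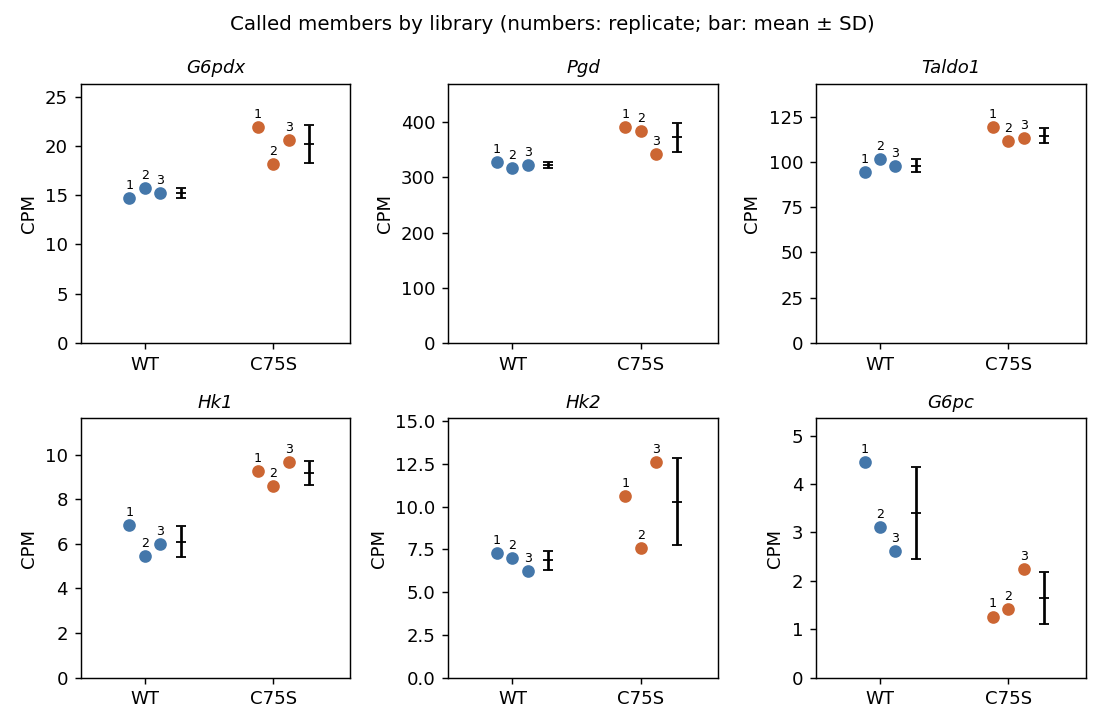
CPM of the 6 called members in each library, with the replicate number above each point and the mean ± SD (n = 3) beside each group, on axes that start at 0. The groups do not overlap in any of the 6 panels, and *Hk2* and *G6pc* have the widest spread, with C75S replicate 2 of *Hk2* at 7.59 CPM near the WT values.

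The hexokinase step showed the largest rises. *Hk1* and *Hk2* encode high-affinity hexokinases that bind mitochondria and are minor in the healthy adult hepatocyte. *Hk1* stood at 6.84, 5.46 and 5.97 CPM in WT and at 9.24, 8.59 and 9.68 CPM in C75S. The groups did not overlap, and the log2 fold change was 0.59 (SE 0.14; adjusted p = 0.0188, edgeR), a rise of 50.4%. *Hk2* stood at 7.31, 7.02 and 6.21 CPM in WT and at 10.6, 7.59 and 12.6 CPM in C75S. C75S replicate 2 was only just above the WT range, and the log2 fold change was 0.58 (SE 0.16; adjusted p = 0.0450, edgeR). Both genes rest on 112 to 236 counts per library.

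*Hk1* (ENSMUSG00000037012, chr10:62268855-62379908, minus strand) no longer passed without WT replicate 2 (edgeR adjusted p = 0.112), WT replicate 3 (0.0693), C75S replicate 1 (0.0638) or C75S replicate 3 (0.0779). *Hk2* (ENSMUSG00000000628, chr6:82725025-82774454, minus strand) kept its call only without C75S replicate 2 (0.00306). It lost it without WT replicate 1 (0.0830), WT replicate 2 (0.139), WT replicate 3 (0.186), C75S replicate 1 (0.145) or C75S replicate 3 (0.300). *Gckr*, the liver regulatory protein that holds glucokinase in the nucleus, stood at 89.6, 79.0 and 83.5 CPM in WT and at 72.1, 81.3 and 75.9 CPM in C75S. Those ranges overlapped, and its log2 fold change was -0.14 (SE 0.06; adjusted p = 0.295, edgeR).

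Markers of some other liver cells moved with the genotype. Summed cholangiocyte markers were 122 to 133 CPM in WT and 144 to 197 CPM in C75S. In that list 4 of 5 genes were tested and 1, *Krt19*, was called, whereas *Spp1*, which was not called (90.99 CPM in WT and 131 CPM in C75S on average, edgeR adjusted p = 0.235), carried most of the rise in the sum. *Sox9* was at 29.7 and 28.5 CPM, and *Epcam*, a defining marker, had 12, 3 and 4 counts in WT and 0, 1 and 2 in C75S. Summed stellate and fibroblast markers were 5.07 to 5.53 CPM in WT and 6.37 to 8.84 CPM in C75S, with 3 of 7 tested and *Acta2* called. *Lrat*, *Des*, *Pdgfrb* and *Col1a2* were under 10 counts in most libraries. Endothelial markers (29.6 to 40.0 CPM in WT, 31.0 to 41.5 CPM in C75S, 5 of 6 tested, 0 called by edgeR and by DESeq2, 2 at an unadjusted p-value under 0.05) overlapped as a sum, with 3 of the 5 genes higher in every C75S library. Kupffer cell and macrophage markers overlapped too (102 to 134 CPM in WT, 95.7 to 140 CPM in C75S, nearly all from *Cd68*). The part of these cells in the hexokinase and pentose phosphate changes was not tested. In bulk RNA, a different number of cells of a type and a different amount of RNA per cell cannot be told apart.

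**Figure D3:**
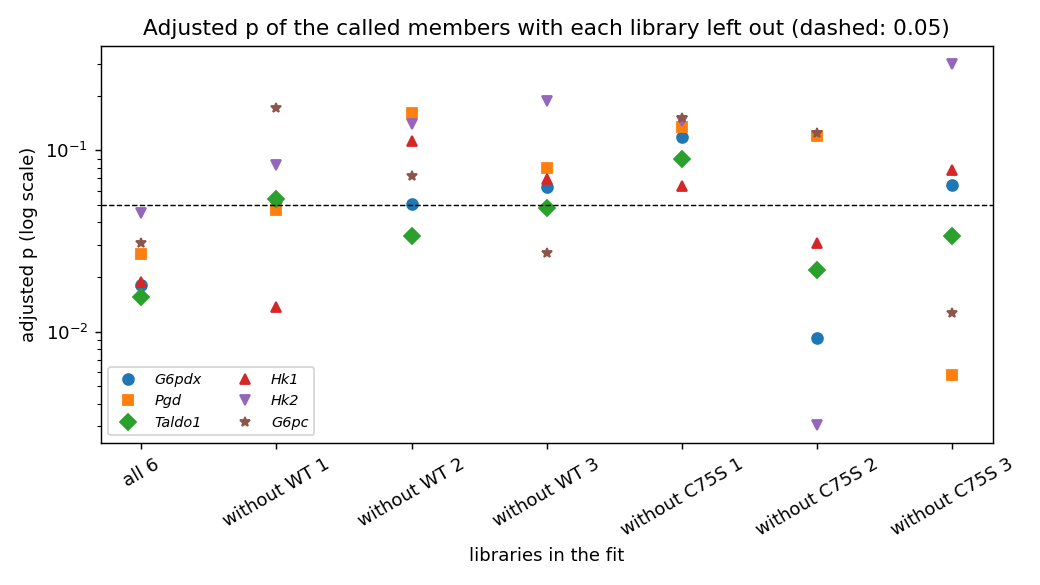
EdgeR adjusted p-values of the 6 called members (log axis) with all 6 libraries and with each library left out in turn; the dashed line is 0.05. Without C75S replicate 1 all 6 members lie above the line, and *Taldo1* lies above it in the fewest fits.

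Of the 7 members grouped under gluconeogenesis, 1 was called, *G6pc*. *G6pc*, the catalytic subunit of glucose-6-phosphatase, carries out the last step of both gluconeogenesis and glycogen breakdown. It was measured at 4.46, 3.12 and 2.62 CPM in WT and at 1.26, 1.42 and 2.25 CPM in C75S, which is 54 to 94 counts against 22 to 42. WT replicate 3 and C75S replicate 3 lay close together, but the groups did not overlap. The log2 fold change was -1.05 (SE 0.27; adjusted p = 0.0307, edgeR), a 2.07-fold fall. *G6pc* (ENSMUSG00000078650, chr11:101367561-101377903, plus strand) no longer passed without WT replicate 1 (edgeR adjusted p = 0.171, log2 fold change -0.80), WT replicate 2 (0.0725), C75S replicate 1 (0.151) or C75S replicate 2 (0.124).

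The partners of *G6pc* did not pass. *Slc37a4* encodes the transporter that brings glucose-6-phosphate to the phosphatase in the endoplasmic reticulum. It stood at 65.2, 76.3 and 68.0 CPM in WT and at 50.9, 54.2 and 67.6 CPM in C75S. C75S replicate 3 fell within the WT range, and the log2 fold change was -0.28 (SE 0.10; adjusted p = 0.189, edgeR). Without that library the log2 fold change was -0.41 and the adjusted p 0.00150. It also passed with no filter on low counts (0.000687).

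*Pck1*, the cytosolic phosphoenolpyruvate carboxykinase, was as scarce as *G6pc* and as variable. It stood at 4.56, 2.78 and 4.51 CPM in WT and at 2.58, 5.36 and 3.69 CPM in C75S, with a log2 fold change of -0.01 (SE 0.24; adjusted p = 0.989, edgeR). The mitochondrial form *Pck2* was steady, at 27.2, 27.4 and 24.8 CPM in WT and 26.0, 27.5 and 26.5 CPM in C75S (log2 fold change 0.01, SE 0.08). *Pcx*, pyruvate carboxylase, opens the pathway in mitochondria. It stood at 187, 185 and 185 CPM in WT and at 159, 178 and 173 CPM in C75S. These did not overlap, but the log2 fold change of -0.13 (SE 0.05) did not pass (edgeR adjusted p = 0.236). *Fbp1*, fructose-1,6-bisphosphatase, and *Ppargc1a*, the coactivator PGC-1alpha that induces gluconeogenic genes on fasting, had log2 fold changes of -0.07 and 0.03.

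Transport and glycogen genes gave no call. *Slc2a2*, GLUT2, is the main hepatocyte glucose transporter. It stood at 138, 153 and 157 CPM in WT and at 116, 128 and 142 CPM in C75S, overlapping through C75S replicate 3. Its log2 fold change was -0.22 (SE 0.06; adjusted p = 0.0869, edgeR). The adjusted p was 0.00976 without C75S replicate 3, 0.0330 without WT replicate 1, 0.0437 with library-size scaling and 0.00365 with no filter. *Slc2a1*, GLUT1, stood at 74.6, 84.0 and 68.8 CPM in WT and at 83.4, 67.1 and 92.2 CPM in C75S, with a log2 fold change of 0.09 (SE 0.13; adjusted p = 0.832, edgeR).

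*Gys2*, liver glycogen synthase, stood at 29.5, 28.5 and 31.6 CPM in WT and at 20.6, 29.2 and 24.8 CPM in C75S. C75S replicate 2 lay among the WT libraries, and the log2 fold change was -0.26 (SE 0.10; adjusted p = 0.205, edgeR). Without C75S replicate 2 it was -0.39 with an adjusted p of 0.0245. *Ugp2*, which makes the UDP-glucose used by glycogen synthase, had the highest level per length among the members as counted from uniquely placed reads, at 519 ± 53.3 CPM per kilobase of exon in WT and 464 ± 34.3 in C75S (SD, n = 3 each; log2 fold change -0.16, edgeR adjusted p = 0.291, and 0.0446 with no filter). *Pygl*, liver glycogen phosphorylase, and *Gbe1*, the branching enzyme, had log2 fold changes of -0.01 and 0.01. For the glycogen group 0 of 4 members passed in edgeR and in DESeq2, with 2 at an unadjusted p-value under 0.05.

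Fructose enters through *Khk*, ketohexokinase, and *Tkfc*, which phosphorylates glyceraldehyde. *Tkfc* stood at 351, 337 and 322 CPM in WT and at 279, 322 and 299 CPM in C75S, just short of overlapping, with a log2 fold change of -0.17 (SE 0.05; adjusted p = 0.111, edgeR). It passed without C75S replicate 2 (0.0412) and with no filter (0.0408). *Khk* had a log2 fold change of 0.01 (SE 0.06).

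The body of glycolysis gave no call. From glucose-6-phosphate isomerase (*Gpi1*) to lactate dehydrogenase there were 15 members, and all 15 overlapped between the genotypes. Among the 5 genes of the phosphofructokinase step 0 passed in edgeR and DESeq2 and 0 had an unadjusted p-value under 0.05, with log2 fold changes from -0.02 to 0.10. Among the 7 genes from *Gpi1* to *Eno1* 0 passed in either tool and 1, *Eno1*, had an unadjusted p-value under 0.05. *Eno1*, enolase, stood at 131, 145 and 132 CPM in WT and at 141, 145 and 165 CPM in C75S (log2 fold change 0.15, SE 0.06, edgeR adjusted p = 0.234). *Pgam1*, phosphoglycerate mutase, stood at 26.4, 29.0 and 30.3 CPM in WT and at 30.9, 28.4 and 33.1 CPM in C75S (log2 fold change 0.11, SE 0.08). Both ranges overlapped. Among *Pklr*, *Pkm*, *Ldha* and *Pdk2*, a kinase that restrains pyruvate dehydrogenase, 0 passed in either tool and 0 had an unadjusted p-value under 0.05.

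Several glycolytic counts are understated by near-identical copies, because reads that map to more than 1 place were not counted to genes. *Gapdh* has 180 other genes at 90% identity or more over at least 200 bases, 171 of them pseudogenes, and was left with 16.5 to 19.9 CPM in WT. *Pgk1* (13.8 ± 0.83 CPM in WT, n = 3) and *Pgam1* each have a copy at 100% identity, and the copies closest to *Eno1* and *Pkm* reach 99.5% and 98.4%. Levels of these genes per length are therefore lower bounds, and their fold changes rest on the reads that could be placed.

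Most of the 15 genes had the same highest library, and most the same lowest, within each genotype. C75S replicate 3 was the highest C75S library in 14 of the 15 and C75S replicate 2 the lowest in 10. WT replicate 2 was the highest WT library in 12 and WT replicate 1 the lowest in 11. Over all 38 members, these 15 included, C75S replicate 3 was highest in 26 and C75S replicate 2 lowest in 18. In WT, replicate 2 was highest in 23 of the 38 and replicate 1 lowest in 20. The order was not counted over all tested genes. *Ldha*, lactate dehydrogenase A, shows the range: 933, 1158 and 1069 CPM in WT and 1038, 967 and 1206 CPM in C75S. A list of 8 transcripts commonly induced by hypoxia ordered the libraries the same way, at 899, 1095 and 986 summed CPM in WT and 950, 775 and 998 in C75S. Summed *Cd68*-dominated macrophage markers did so too, at 102, 134 and 117 CPM in WT and 122, 95.7 and 140 CPM in C75S. So did summed endothelial markers, at 29.6, 40.0 and 31.8 CPM in WT and 35.3, 31.0 and 41.5 CPM in C75S. Summed hepatocyte markers had this order in WT, but in C75S replicate 3 was highest and replicate 1 lowest. The cholangiocyte, stellate, erythroid and lymphoid sums did not follow it in both genotypes. The part of these transcripts and cells in the spread was not tested. Of the called genes, *Hk1* and *Hk2* had the same highest and lowest C75S library as most of the 15, replicates 3 and 2, whereas C75S replicate 1 was the highest for *G6pdx*, *Pgd* and *Taldo1*. In WT, *G6pdx* and *Taldo1* were also highest in replicate 2 and lowest in replicate 1.

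**Figure D4:**
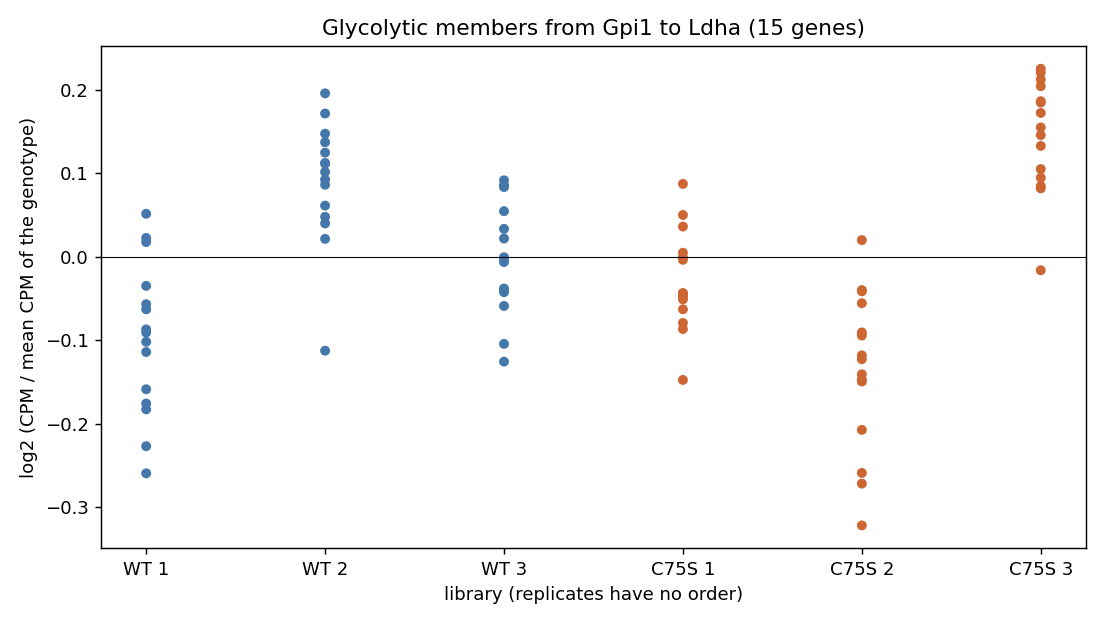
Log2 ratio of each library's CPM to the mean of its genotype for the 15 glycolytic members from *Gpi1* to *Ldha*; each point is 1 gene in 1 library. Points of WT replicate 2 and C75S replicate 3 lie mostly above 0, and points of WT replicate 1 and C75S replicate 2 mostly below.

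Liver and non-liver isozymes were then set side by side per kilobase of exon. The length merges the exons of all annotated transcripts of a gene, so ratios between genes depend on it as well as on the counts. Members assigned to the liver class (11 genes, *G6pc* among them) had a median log2 fold change of -0.02, with 2 above 0, 9 below 0 and 1 called lower. Members assigned to the non-liver class (8 genes) had a median of 0.06, with 6 above 0, 2 below 0 and the 2 hexokinases called higher. The median over all tested genes was -0.003. Summed levels of the liver class were 253 to 266 CPM per kilobase in WT and 241 to 264 in C75S, and those of the non-liver class 248 to 278 and 235 to 290. The ranges of the genotypes overlapped for both classes.

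**Figure D5:**
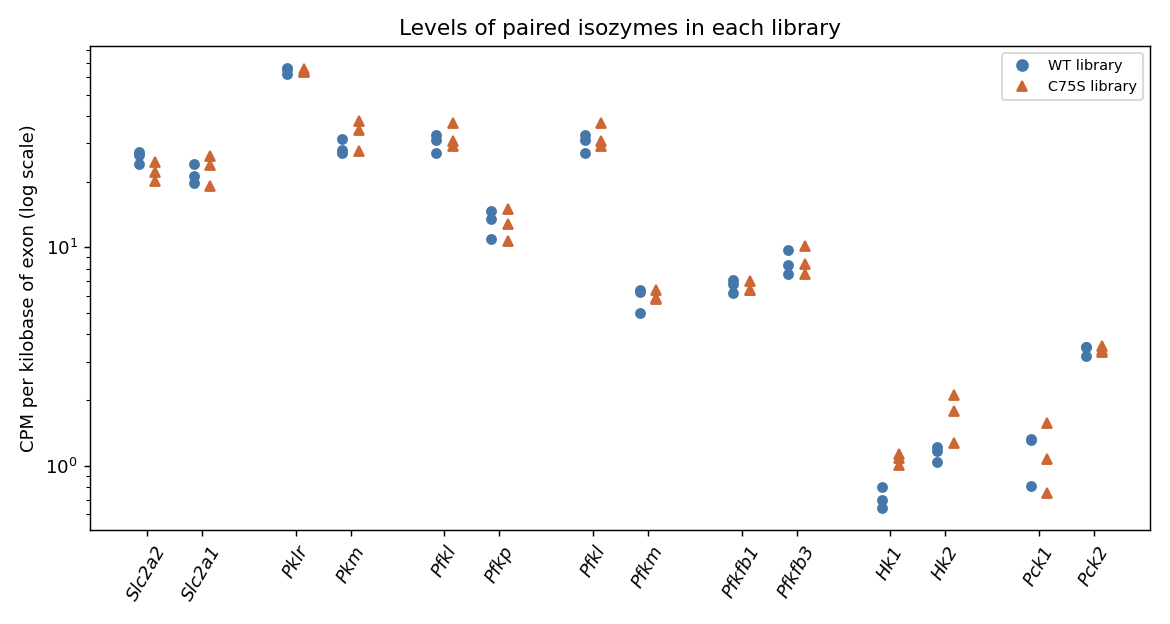
CPM per kilobase of exon (log axis) of the isozymes compared as pairs, with 1 circle per WT library and 1 triangle per C75S library. *Pklr* lies above *Pkm* and *Pfkl* above *Pfkp* and *Pfkm* in every library, whereas *Slc2a2* and *Slc2a1* lie at similar levels. The level of *Pkm* is a lower bound, and the distances between genes depend on the merged exon lengths.

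Pyruvate kinase catalyses the last step of glycolysis. *Pklr*, the liver form, was among the steadiest members, at 211, 214 and 200 CPM in WT and 208, 211 and 206 CPM in C75S (log2 fold change -0.001, SE 0.05). *Pkm* stood at 135, 157 and 140 CPM in WT and at 173, 138 and 190 CPM in C75S (log2 fold change 0.21, SE 0.12, edgeR adjusted p = 0.550). C75S replicate 2 lay within the WT range, and without it the log2 fold change was 0.33 and *Pkm* passed (edgeR adjusted p = 0.00240). It also passed with no filter (0.0245). Per kilobase, *Pkm* was 0.447 times *Pklr* in WT and 0.519 times in C75S. The *Pkm* level is a lower bound because of its near copies, so its place against *Pklr* is not fixed. The log2 of the count ratio differed by 0.20 (SE 0.16, two-sided exact permutation p = 0.3). The gene count does not separate the splice forms of *Pkm*, and its exons share 767 bases with *Gm49759* on the same strand.

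For glucose transport, *Slc2a1* was 0.888, 0.901 and 0.719 times *Slc2a2* per kilobase in WT (mean 0.836) and 1.18, 0.864 and 1.07 times in C75S (mean 1.04). The groups overlapped through C75S replicate 2, and the log2 ratio differed by 0.31 (SE 0.17, two-sided exact permutation p = 0.3). Without C75S replicate 2 the difference was 0.43. Per length, GLUT1 transcripts thus stood at 0.719 to 1.18 times those of GLUT2 over the 6 libraries, 48 h after isolation. That closeness depends on the merged exon lengths, 3506 bases for *Slc2a1* and 5755 for *Slc2a2*. Without division by length the means were 75.8 and 149 CPM in WT, and 80.9 and 128 CPM in C75S.

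Phosphofructokinase is the committed step of glycolysis, and 3 genes encode its subunits. *Pfkl*, the liver subunit, stood at 180, 218 and 206 CPM in WT and at 204, 194 and 249 CPM in C75S. *Pfkp* stood at 146, 196 and 181 CPM in WT and at 172, 144 and 200.1 CPM in C75S. *Pfkm*, the muscle subunit, was the least abundant, at 16.8, 21.2 and 20.96 CPM in WT and 19.5, 19.5 and 21.2 CPM in C75S. Per kilobase, *Pfkp* was 0.430 and *Pfkm* 0.195 times *Pfkl* in WT, and 0.396 and 0.187 times in C75S. The gap between *Pfkp* and *Pfkl* depends on the merged exon lengths, 13401 bases for *Pfkp* and 6675 for *Pfkl*. Without division by length their means were 174 and 201 CPM in WT, and 172 and 216 CPM in C75S. The log2 ratio differed by -0.12 (SE 0.07) for *Pfkp* and by -0.06 (SE 0.08) for *Pfkm*, with two-sided exact permutation p-values of 0.2 and 0.6.

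The bifunctional enzymes that set fructose-2,6-bisphosphate, the activator of phosphofructokinase, were also level. *Pfkfb1*, the liver form, stood at 27.3, 24.9 and 28.5 CPM in WT and at 25.6, 25.8 and 28.1 CPM in C75S. *Pfkfb3*, the inducible form, stood at 56.8, 73.9 and 62.8 CPM in WT and at 63.4, 56.9 and 76.8 CPM in C75S. Per kilobase *Pfkfb3* was 1.28 times *Pfkfb1* in WT and 1.31 times in C75S. That log2 ratio differed by 0.05 (SE 0.18, two-sided exact permutation p = 0.8).

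The remaining pairs were not liver against non-liver at a single step. *Hk2* was 1.62 times *Hk1* per kilobase in WT and 1.59 times in C75S, a log2 difference of -0.04 (SE 0.19, two-sided exact permutation p = 1). The rises of the 2 hexokinases, 50.4% and 49.4%, were close in size, but the spread of this ratio leaves room for a difference. *Pck2* was 3.12 times *Pck1* per kilobase in WT and 3.27 times in C75S (log2 difference 0.06, SE 0.38, two-sided exact permutation p = 0.9). With 7 ratios tested, the adjusted p-values were 0.7 for *Slc2a1* to *Slc2a2*, *Pkm* to *Pklr* and *Pfkp* to *Pfkl*, and 1 for the rest. With 3 libraries against 3 the smallest p-value this test can give is 0.1, so it could not reach 0.05.

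Per length, and counting uniquely placed reads alone, the members ranged in WT from 519 to 0.713 CPM per kilobase. *Gapdh*, *Pgk1*, *Pgam1*, *Eno1* and *Pkm*, whose levels are lower bounds, have no fixed place in this order. Of the others, *Ugp2*, *Tpi1* (402 ± 17.3 CPM per kilobase) and *Ldha* (318 ± 34.4) were at the top, followed by *Aldoa* at 184 ± 11.1 (SD, n = 3 each). *Tpi1*, *Ldha* and *Aldoa* also have near copies (2, 13 and 6 genes), so their levels may be understated too. At the bottom were *Hk1* at 0.713 ± 0.08, *Hk2* at 1.15 ± 0.10, *Pck1* at 1.15 ± 0.30 and *G6pc* at 1.41 ± 0.39 CPM per kilobase. *Hk2*, *Pck1* and *G6pc* did not differ beyond their spread. The 2 enzymes best known as fasting-induced markers of liver gluconeogenesis, *Pck1* and *G6pc*, were thus among the scarcest members in WT cells at this time.

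A list of 65 other genes of the same pathways was read from the same fit, and 56 could be tested. Of these 3 passed (1 higher and 2 lower), which is 5.36%, beside 3.11% of all tested genes. All 3 encode transcription factors. *Hif1a*, the oxygen-regulated subunit of HIF-1, which induces glycolytic genes, rose. It stood at 131, 135 and 138 CPM in WT and at 173, 159 and 161 CPM in C75S, with a log2 fold change of 0.29 (SE 0.05; adjusted p = 0.000982, edgeR). Its exons share 148 bases with *Gm49321* on the same strand. *Foxo1*, which drives gluconeogenic genes such as *G6pc* when insulin is low, fell from 155, 170 and 169 CPM in WT to 136, 138 and 147 CPM in C75S (log2 fold change -0.23, SE 0.05, edgeR adjusted p = 0.0148). *Mlxipl*, ChREBP, which responds to glucose and induces *Pklr*, fell from 212, 198 and 204 CPM to 184, 178 and 172 CPM (log2 fold change -0.20, SE 0.05, edgeR adjusted p = 0.0205). The groups did not overlap for any of the 3.

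*Hif1a* passed in every fit that left out 1 library. *Foxo1* no longer passed without WT replicate 2 (edgeR adjusted p = 0.117), WT replicate 3 (0.0693), C75S replicate 1 (0.0675) or C75S replicate 2 (0.0614). *Mlxipl* no longer passed without WT replicate 1 (0.0745), WT replicate 3 (0.0575), C75S replicate 2 (0.0637) or C75S replicate 3 (0.114). The median log2 fold change of the 56 genes was -0.002, and their 5 tested pentose phosphate genes lay between -0.08 and 0.02. Of those 5, 0 passed in edgeR and in DESeq2 and 0 had an unadjusted p-value under 0.05, so the rises among the members were not found in *Pgls*, *H6pd*, *Rpe*, *Rpia* or *Prps1*.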

How the data were processed

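RNA sequencing of 6 mouse hepatocyte libraries gave the deposited files, which hold raw counts per Ensembl gene as the authors made them, unstranded and for each strand. Per the submitters' processing notes, Trim Galore 0.6.6, STAR 2.7.9a and edgeR 3.36.0 were used with mm10 (GRCm38); the annotation release is not given in the sources used here. Reads mapping to several places (18.0% to 18.5%), unmapped reads and the other summary rows were left out. The reverse-strand column, 33.3 times the forward one, was used.

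Genes were filtered with filterByExpr (minimum count 10, minimum total 15), scaled by TMM and fitted by robust quasi-likelihood in edgeR 4.0.16, under R 4.3.3, with genotype as the single term. P-values were adjusted by Benjamini-Hochberg over 12741 genes, with a threshold of 0.05. The SE is the log2 fold change divided by the root of F. CPM use TMM-scaled library sizes, and per-kilobase values divide by the merged exon length in GENCODE M21 (GRCm38). Isozyme ratios used counts plus 0.5. Copies were sought with BLAST 2.17.0 among GENCODE M21 transcripts. The fit was also run on simulated data with known changes.

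Named genes were the called members, both genes of each isozyme ratio, the 3 largest rises and 3 largest falls among uncalled members, and called genes of the wider pathway list. *Gckr*, *Tkt*, *Pcx*, *Ugp2*, *Tkfc*, *Ldha* and *Tpi1* were described after their values were seen. Members, isozyme classes and lists were chosen with earlier results of these data known. Alternatives were RLE and library-size scaling, DESeq2 1.42.0, no filter, unstranded counts, a replicate block, a pseudocount of 5 and leaving out each library. Replicate numbers do not pair the libraries by any label.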

Additional observations from a re-analysis of the deposited data

How the results depend on the processing

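The count of 6 called members was 6 with RLE, 7 with library-size scaling, 6 with DESeq2, 5 unstranded, 11 with no filter beyond 1 count and 8 with a replicate block, and 0 to 7 with 1 library left out (3, 1 and 2 on leaving out WT replicates 1, 2 and 3, and 0 on leaving out C75S replicate 1, where 10 members had an unadjusted edgeR p-value under 0.05). The 396 calls over all genes became 480 with the block and 573 with no filter (290 higher and 283 lower, against 222 and 174), and 201 to 355 with 1 library left out (201 and 246 on leaving out WT replicates 2 and 3, 253 on leaving out C75S replicate 1). The 3 calls of the wider pathway list became 5 with the replicate block and 2 to 4 with a library left out. Same-numbered libraries did not deviate together (correlations of 0.02, -0.04 and 0.03), and the block changed no sign among the isozyme ratios. The members called with the block and not without it were *Slc2a2* (edgeR adjusted p = 0.0108) and *Slc37a4* (0.0374), both lower in C75S.

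With each library left out, the log2 ratio differences ranged from 0.201 to 0.432 for *Slc2a1* to *Slc2a2*, 0.0953 to 0.342 for *Pkm* to *Pklr*, -0.166 to -0.0672 for *Pfkp* to *Pfkl*, -0.111 to 0.00403 for *Pfkm* to *Pfkl*, -0.0537 to 0.203 for *Pfkfb3* to *Pfkfb1*, -0.160 to 0.119 for *Hk2* to *Hk1* and -0.178 to 0.321 for *Pck2* to *Pck1*. Log2 fold changes changed sign in at least 1 alternative in 17 of the 38 members. They ranged from -0.0128 to 0.214 for *Slc2a1*, -0.146 to 0.0943 for *Pfkp*, -0.0715 to 0.0882 for *Pfkm*, -0.103 to 0.133 for *Pfkfb3*, -0.0336 to 0.0351 for *Pck2*, -0.0292 to 0.0198 for *Pklr*, -0.0139 to 0.171 for *Pfkl*, -0.0770 to 0.0193 for *Pfkfb1* and -0.327 to 0.202 for *Pck1*. The others were *Gpi1* (-0.0497 to 0.0824), *Aldoa* (-0.0886 to 0.0276), *Pgk1* (-0.0992 to 0.0835), *Ldha* (-0.0715 to 0.0967), *Pygl* (-0.0913 to 0.0344), *Gbe1* (-0.0328 to 0.0477), *Khk* (-0.0393 to 0.0372) and *Ppargc1a* (-0.0431 to 0.159). *Pklr* was at 0.0114 with library-size scaling and 0.00651 unstranded. The 6 called members kept their direction in each of the 12 alternative fits. The cause of these shifts was not tested. A count of 3 was 0.142 to 0.172 CPM, which limits *G6pc* and *Pck1* most.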

Other observations

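*Hif1a* was the gene of the wider pathway list with the smallest p-value, and the 8 transcripts commonly induced by hypoxia were read beside it. Of these, 7 could be tested, and 0 passed in edgeR's quasi-likelihood test or in DESeq2, with 3 at an unadjusted edgeR p-value under 0.05. Their median log2 fold change was -0.13, with 6 of 7 below 0, while *Hif1a* was higher in 3 of 3 C75S libraries. *Vegfa*, the endothelial growth factor, was at 395 ± 20.4 CPM in WT and 346 ± 40.9 CPM in C75S, and *Ddit4*, an inhibitor of mTORC1, at 76.4 ± 4.31 and 66.4 ± 2.45 CPM (SD, n = 3 each). *Adm*, adrenomedullin, was the one above 0, at 30.5 ± 2.37 CPM in WT and 36.6 ± 6.14 CPM in C75S. *Car9* was under 10 counts in most libraries. The level of HIF-1 protein was not measured.

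Of the uncalled genes on the wider list, *Ppp1r3c*, a subunit that targets phosphatase to glycogen, stood at 51.3, 62.5 and 83.8 CPM in WT and at 40.0, 46.7 and 42.3 CPM in C75S. The groups did not overlap, and the log2 fold change of -0.61 (SE 0.21) did not pass (edgeR adjusted p = 0.312). This gene was picked after its values were seen.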
